A study of Mus musculus with 6 samples.

Results

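The genes described here encode the inhibitors of cyclin-dependent kinases (CDKs): the CIP/KIP family (Cdkn1a, Cdkn1b and Cdkn1c), the INK4 family (Cdkn2a, Cdkn2b, Cdkn2c and Cdkn2d) and Cdkn3. They were chosen by name, and all 8 were found among the 22579 genes of the count table and among the 14766 genes tested. The series compared THY1-positive spermatogonia of Ddx20 knockout mice (cKO in the library names) with those of littermate controls at day 4, with 3 SMART-seq2 libraries of about 1000 cells per genotype. THY1, a cell surface glycoprotein, is a handle for enriching spermatogonial stem and progenitor cells, and DDX20 is a DEAD-box RNA helicase of the SMN complex. No further treatment is named for either group. Strain, Cre driver and the number of animals behind a library are not part of the labels.

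CDKs drive the cell cycle when bound to cyclins. INK4 proteins bind CDK4 and CDK6 and keep D-type cyclins from activating them, which holds the retinoblastoma protein in its growth-restraining form. CIP/KIP proteins bind cyclin and kinase together, inhibit CDK2 complexes, and can also help to assemble cyclin D complexes. CDKN3 is a phosphatase that removes the activating phosphate from CDK2 and is itself expressed in cycling cells. In the testis, loss of Cdkn2d, and more so of Cdkn2c and Cdkn2d together, is known to disturb spermatogenesis in mice.

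Depth was 8428871 to 12497967 counted reads per library. Ddx20 had 668, 383 and 531 reads in controls against 128, 168 and 119 in knockouts, and fell from 47.0 ± 14.8 to 12.6 ± 2.35 CPM (counts per megaread of the TMM-adjusted library size; SD, n = 3 per group; log2 fold change −1.89, edgeR adjusted p 0.0118). Reads of mitochondrially encoded genes made up 14.0% to 16.9% in controls and 19.8% to 20.1% in knockouts. Knockout 1 and knockout 2 were nearly the same library by content, with a mean chi-square per gene of 1.78 against 12.0 to 104 for the other 14 pairs, where sampling noise alone gives about 1. Values with that pair averaged to 1 library are given below for each gene, the CIP/KIP proportions and the family sums. By the same measure control 1 differed from control 2 and control 3 by 53.9 and 48.4, while control 2 differed from the knockouts by 35.5 to 40.1. Control 1 was also the library with the fewest counted reads. The germ cell gene Ddx4 was read at 365 ± 43.7 CPM (controls) and 465 ± 18.7 CPM (knockouts), and of 6 germ cell markers 1, Mael, was called, as higher. Over all genes tested, edgeR called 2.03% higher and 2.80% lower, which stands beside each count of called markers. Markers of undifferentiated spermatogonia summed to 1025 to 1107 against 796 to 848 CPM, with 3 of 11 called lower (Gfra1, Ret and Etv5). In 8 of the 11 the knockouts lay below all controls (all genes: 15.8%). Uchl1, Lin28a and Thy1 overlapped between the groups, at log2 fold changes of 0.07, −0.17 and −0.47. Nanos2 had 26, 19 and 18 reads against 0, 0 and 8 and was not called (edgeR adjusted p 0.194). Of 5 markers of differentiating spermatogonia 2 fell, Stra8 from 111 ± 16.9 to 47.4 ± 1.03 CPM and Kit from 31.5 ± 2.82 to 15.5 ± 2.08 CPM (edgeR adjusted p 0.0101 and 0.0269). In the other direction, Rhox13 and Dmrtb1 lay higher in the knockouts without overlap (all genes: 16.8%). Their log2 fold changes were 0.80 and 1.44, and neither was called (edgeR adjusted p 0.0944 and 0.324). Sohlh2 overlapped, and the median log2 fold change of the list was −0.0016.

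Markers of other cell types were also read, and their summed levels, controls first, rested on few genes. Their counts of calls stand against 2.03% of all genes called higher and 2.80% called lower. Unadjusted p-values under 0.05 in edgeR were found for 11.3% of all genes as higher and 12.8% as lower. The 10 Sertoli cell markers summed to 65.2 to 76.4 against 151 to 174 CPM: Clu, Inha and Cldn11 rose, the other 5 tested overlapped between the groups, Sox9 among them at 5.68 ± 1.09 and 3.54 ± 1.91 CPM, and Amh had at most 2 reads in a library. The 7 peritubular myoid markers summed to 142 to 175 against 340 to 457 CPM, with 3 of 6 tested called higher (Acta2, Actg2 and Myl9), and the 7 stromal markers to 729 to 1085 against 1531 to 1676 CPM, with 2 called higher (Dcn and Lum) and Pdgfra at a log2 fold change of −0.26. Of 7 macrophage markers edgeR called 0, and 2 had an unadjusted p under 0.05; the sum of 1023 to 2382 against 2495 to 3524 CPM was led by Lyz2, at 657 ± 314 and 1384 ± 337 CPM, while Csf1r had a log2 fold change of −0.09. The 7 T lymphocyte markers summed to 25.6 to 32.9 against 52.6 to 70.9 CPM, with Cd3g and Lck called higher. Cd3d, Cd2, Cd4 and Cd8a overlapped between the groups, at log2 fold changes of 1.26, 0.13, 0.32 and −0.74. The Leydig cell sums overlapped, at 35.7 to 68.5 and 48.7 to 68.1 CPM, and endothelial sums were 53.9 to 58.3 against 75.1 to 78.9 CPM, with 0 markers called by edgeR in either list and unadjusted p-values under 0.05 for 2 Leydig markers, 1 in each direction, and 1 endothelial marker, higher. In these 3 lists DESeq2 called 1 macrophage, 1 Leydig and 0 endothelial markers and limma-voom 0, 1 and 1, all as higher. Over all genes DESeq2 called 806 as higher and limma-voom 1152, the latter calling 19.5% in either direction. In every marker list, germ cell lists included, at least 1 edgeR fit with a library left out called 0 markers. Of all genes, such fits called 0.0194% without knockout 3, 0.0325% without knockout 1 and 1.17% without control 2. The markers named here were picked after their values were seen. The part of these cells in the results below was not tested, and in bulk RNA fewer cells of a type and less RNA per cell cannot be told apart.

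Sequences before annotated start sites are shown for the gene called lower, for its family member that is a textbook p53 target, and for Cdkn3. Which starts these cells use was not measured, as counts are per gene. They are the 250 bases before a RefSeq start on GRCm38 (the mm10 assembly), 5′ to 3′ on the plus strand, on which all 3 genes lie: chr6:134920151-134920400 for Cdkn1b, chr17:29090729-29090978 for the upstream start of Cdkn1a and chr14:46760291-46760540 for Cdkn3. Capitals mark CCAAT, read on both strands, in Cdkn1b and Cdkn3, and CATGNNNNNNCATG, also read on both strands, the paired cores of a p53 site, in Cdkn1a.
Cdkn1b: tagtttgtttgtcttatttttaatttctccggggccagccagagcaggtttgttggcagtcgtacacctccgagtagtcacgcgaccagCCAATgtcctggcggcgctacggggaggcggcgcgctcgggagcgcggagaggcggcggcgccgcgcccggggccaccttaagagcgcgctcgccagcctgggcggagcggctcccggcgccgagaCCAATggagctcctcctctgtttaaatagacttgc
Cdkn1a: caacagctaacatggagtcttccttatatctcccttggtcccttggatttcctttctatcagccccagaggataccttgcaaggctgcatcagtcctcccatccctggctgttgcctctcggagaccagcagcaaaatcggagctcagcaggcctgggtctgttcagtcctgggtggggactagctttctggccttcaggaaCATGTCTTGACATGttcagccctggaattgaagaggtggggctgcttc
Cdkn3: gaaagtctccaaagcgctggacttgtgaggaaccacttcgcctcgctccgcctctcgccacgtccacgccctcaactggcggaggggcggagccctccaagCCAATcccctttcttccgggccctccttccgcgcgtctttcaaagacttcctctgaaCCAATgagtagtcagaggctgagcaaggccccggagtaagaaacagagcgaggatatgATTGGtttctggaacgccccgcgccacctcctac
Of 32851 RefSeq windows of this length, 33.8% hold CCAAT and 0.49% hold CATGNNNNNNCATG. CCAAT occurs 2 times in the Cdkn1b window, starting 161 and 35 bases before the start, and 3 times in the Cdkn3 window, at 149, 92 and 34 bases. The paired p53 cores start 48 bases before the upstream Cdkn1a start, while the window before the downstream Cdkn1a start at 29093769 holds none. The Cdkn3 window also holds TTTGAA, the letters of the cell cycle homology region, 1 time on the minus strand 111 bases before the start, as do 16.0% of all windows. GGGCGG, the GC box, occurs 1 time each in the Cdkn1b and Cdkn3 windows and in 32.7% of all windows. These are matches of letters only. RefSeq windows matched 7 of the 8 genes, Cdkn1c being the one without an entry.

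Cdkn1b was the single member that the edgeR fit to all 6 libraries called. It encodes p27, the inhibitor that holds CDK2 in check in quiescent and differentiating cells (ENSMUSG00000003031, chromosome 6, 134920401 to 134925513). Its reads numbered 177, 183 and 154 in controls against 73, 70 and 62 in knockouts. On the CPM scale the levels were 16.9, 17.4 and 11.8 in controls and 6.79, 6.35 and 5.58 in knockouts. Every knockout library lay below every control library, and the lowest control was control 3. Mean levels were 15.4 ± 3.09 and 6.24 ± 0.610 CPM (SD, n = 3 per group), 2.46-fold lower in the knockouts. The log2 fold change was −1.30 ± 0.29 (SE, 95% interval −1.93 to −0.66), and edgeR gave an adjusted p of 0.0337 (unadjusted 0.000934). Of all genes tested 4.83% were called, 2.03% as higher and 2.80% as lower, and among the 8 members 1 call is too few to set against these shares. A log2 fold change as low as that of Cdkn1b or lower was found in 2.07% of genes tested. The size of the decrease held in every setting, from −1.56 with library size alone as the scale to −1.19 without control 2. The call was lost in edgeR without control 2 (adjusted p 0.0814), without knockout 1, 2 or 3 (0.167, 0.178 and 0.0920) and with knockout 1 and 2 counted as 1 library (0.173). In these settings few genes of any kind were called: 1.17% without control 2, 0.0325%, 0.0650% and 0.0194% without knockout 1, 2 and 3, and 0.00649% with the pair as 1 library. With that pair as 1 library DESeq2 gave an adjusted p of 0.0470 and limma-voom one of 0.050025, just above the threshold of 0.05. DESeq2 then called 5.22% of the 8921 genes that its own filter left, and limma-voom 3.28% of 15406, so these adjusted values rest on different sets of genes.

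**Figure D1:**
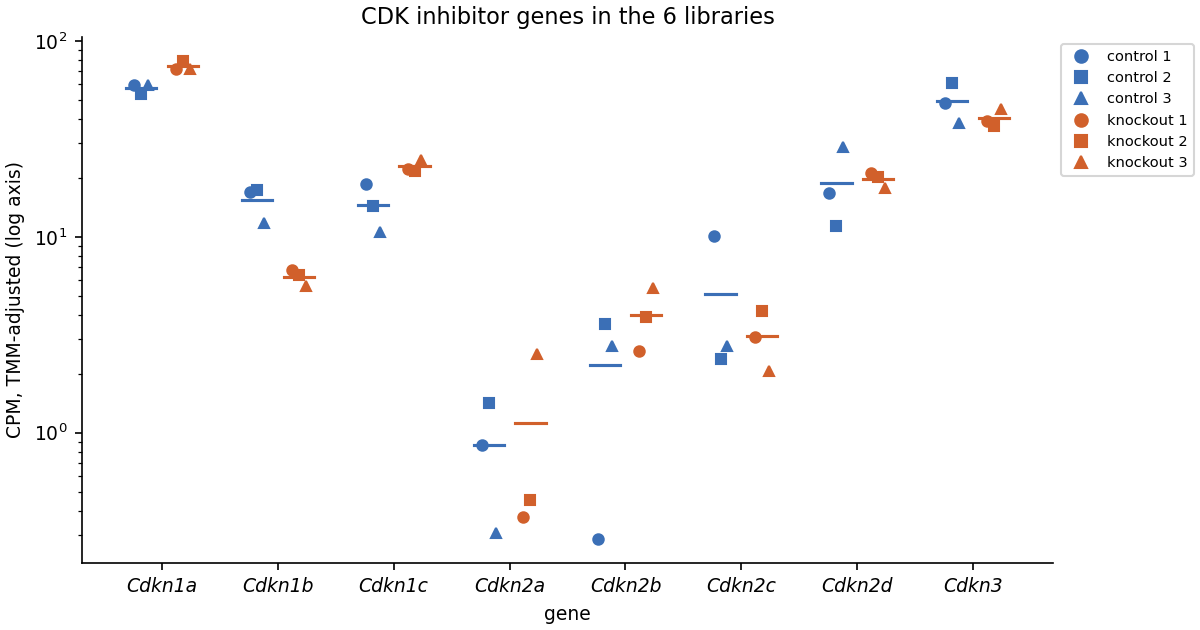
Levels of the 8 genes in each library, in CPM on a log axis; points are single libraries, with a shape for each replicate number, and bars are group means. Cdkn1b in the knockouts (5.58 to 6.79 CPM) sits below all controls (11.8 to 17.4 CPM), Cdkn1a and Cdkn1c in the knockouts sit above all controls, and Cdkn2b in control 1 lies far below the other libraries.

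The other CIP/KIP genes stood higher in the knockouts without passing the threshold. Cdkn1a encodes p21, which p53 and other stress and differentiation signals induce (chromosome 17, 29090976 to 29100727). Its levels were 59.2, 53.8 and 59.3 CPM in controls and 72.04, 79.3 and 72.02 CPM in knockouts. The groups did not overlap. In controls the coefficient of variation was 5.49%, where the median over all genes tested was 29.4%. In knockouts it was 5.62%, a value that includes the near-identical pair and has no such median beside it. The means were 57.5 ± 3.15 and 74.4 ± 4.19 CPM (SD, n = 3 per group), 1.30-fold higher, with a log2 fold change of 0.37 ± 0.15 (SE, 95% interval 0.05 to 0.69). The edgeR adjusted p was 0.151 (unadjusted 0.0263), and limma-voom with quality weights, which called 19.5% of all genes, gave 0.0466, or 0.268 with knockout 1 and 2 as 1 library. A minus-strand gene, AC167363.2, covers 7.68% of the exon bases of Cdkn1a and has no row in the count table. With the pair as 1 library edgeR gave 0.37 (adjusted p 0.442). With library size alone as the scale the log2 fold change was 0.10, where the median of all genes moved from 0.01 to −0.26.

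Cdkn1c encodes p57, an inhibitor of imprinted, maternal expression that marks many non-dividing cells (chromosome 7, 143458339 to 143461050). Control levels were 18.5, 14.3 and 10.6 CPM, and knockout levels 22.3, 21.6 and 24.7 CPM. No knockout library reached down to a control library, and control 1 lay nearest. Mean levels were 14.5 ± 3.98 and 22.9 ± 1.61 CPM (SD, n = 3 per group), 1.58-fold higher, with a log2 fold change of 0.66 ± 0.25 (SE, 95% interval 0.10 to 1.22). The edgeR adjusted p was 0.144 (unadjusted 0.0242), and limma-voom with quality weights gave 0.0399, or 0.132 with the knockout pair as 1 library. After removal of each library's trend with gene length and GC content, the log2 fold change was 0.39 (edgeR adjusted p 0.415), and with library size alone as the scale it was 0.38 (0.444). With the pair as 1 library edgeR gave 0.69 (0.364). An antisense gene, Gm44732, covers 30.7% of the exon bases of Cdkn1c and has no row in the count table, so that its reads and those of Cdkn1c cannot be told apart without strand. The summed Sertoli, stromal and myoid markers were higher in the same knockout libraries, through the genes named above, and their part in the level of Cdkn1c was not tested.

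Among all genes tested the groups did not overlap in 32.6%, 16.8% with the knockouts higher and 15.8% with the knockouts lower. By that measure 3 of the 8 members were separated, all of them CIP/KIP genes, which is a share near that of all genes. Unadjusted p-values under 0.05 were found for these 3, and for 24.1% of all genes (11.3% higher, 12.8% lower). The median log2 fold change of the 8 members was 0.21, against 0.01 over all genes.

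**Figure D2:**
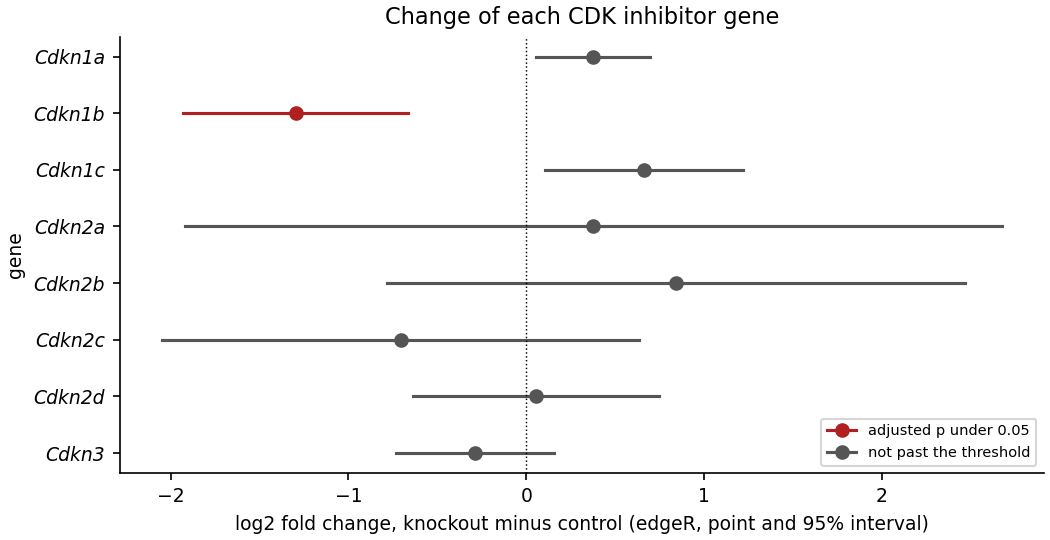
Log2 fold change of knockout minus control for the 8 genes, as the edgeR estimate (point) with its 95% interval (line), red where the adjusted p was under 0.05. Cdkn1b alone is red, at −1.30, the intervals of Cdkn1a and Cdkn1c lie above 0, and those of the INK4 genes and Cdkn3 include 0.

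The proportions of the 3 CIP/KIP genes were also compared within each library, where the scale between libraries has no part. Levels per length are CPM per kilobase of merged exons (3.553 kb for Cdkn1a, 4.552 kb for Cdkn1b and 2.039 kb for Cdkn1c). The Cdkn1b share of the summed CIP/KIP level was 12.6%, 14.7% and 10.6% in controls and 4.56%, 4.07% and 3.65% in knockouts. The means were 12.6% ± 2.04 and 4.09% ± 0.454 (SD, n = 3 per group), a difference of −8.53 percentage points. The Cdkn1c share was 26.4% ± 4.86 and 33.4% ± 2.57, and the Cdkn1a share 61.0% ± 6.29 and 62.5% ± 2.40. The Cdkn1b shares did not overlap between the groups, the Cdkn1c shares met without overlap at 30.84% and 30.87%, and the Cdkn1a shares overlapped. The lack of overlap in the Cdkn1b shares follows from the separate CPM levels of the 3 genes, so its exact p is no further evidence. Exact two-sided permutation tests gave p = 0.1 for Cdkn1b and for Cdkn1c, the smallest value that 3 against 3 libraries allow, and p = 0.7 for Cdkn1a. Adjusted over the 7 shares tested in the CIP/KIP and INK4 families, these were 0.35, 0.35 and 0.98. With knockout 1 and 2 averaged to 1 library the mean knockout shares were 3.99% for Cdkn1b, 34.1% for Cdkn1c and 61.9% for Cdkn1a, with exact permutation p of 0.1, 0.2 and 0.9, where 0.1 is again the smallest that 3 against 2 libraries allow.

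The ratio of Cdkn1a to Cdkn1b per length was 4.49, 3.97 and 6.44 in controls against 13.6, 16.0 and 16.5 in knockouts. That of Cdkn1c to Cdkn1b was 2.45, 1.84 and 2.00 in controls and 7.34, 7.59 and 9.87 in knockouts. Both ratios were higher in every knockout library than in any control library. This follows from the CPM levels, where Cdkn1a and Cdkn1c were higher and Cdkn1b lower without overlap. The separation of the ratios is thus no further evidence, also with the pair averaged. The summed CIP/KIP level was 26.6 ± 2.56 CPM per kb in controls and 33.5 ± 0.796 CPM per kb in knockouts (SD, n = 3 per group), without overlap (exact permutation p = 0.1, again the smallest possible, and 0.167 adjusted over 5 such quantities). With the pair averaged the mean knockout ratios were 15.6 and 8.64 (exact permutation p = 0.1 each) and the mean CIP/KIP sum 33.5 CPM per kb (p = 0.2). Merged exons count every annotated transcript, so per-length values depend on which transcripts the cells use.

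**Figure D3:**
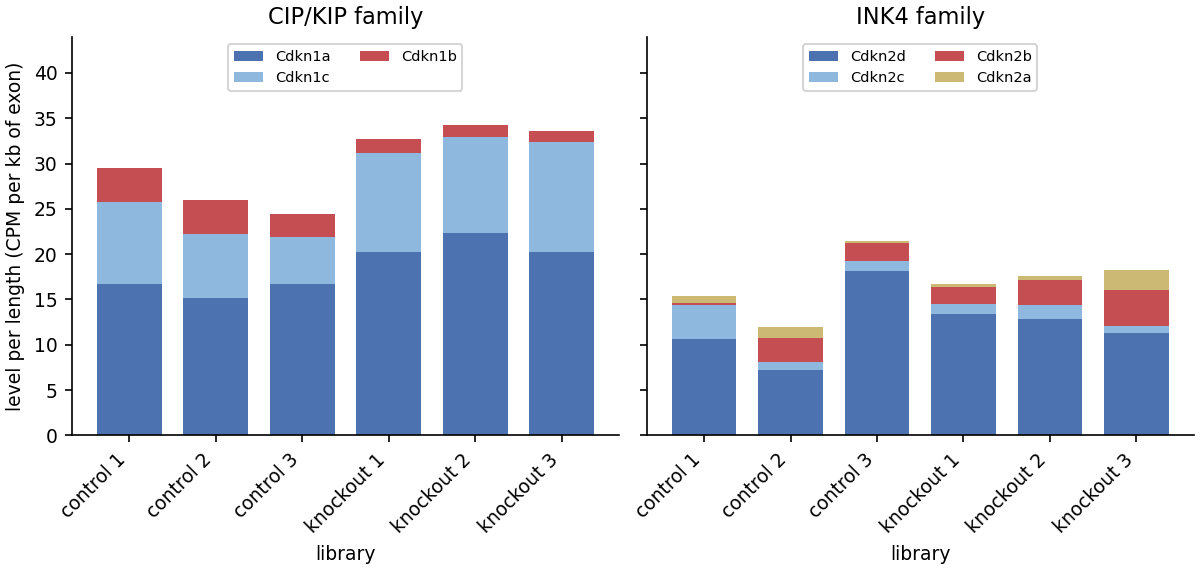
Stacked levels of the CIP/KIP genes (left) and INK4 genes (right) in each library, in CPM per kilobase of exon on a linear axis from 0. The Cdkn1b segment is thinner in the 3 knockouts (1.23 to 1.49 CPM per kb) than in the controls (2.59 to 3.82), and Cdkn2d makes up most of the INK4 level in every library.

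The INK4 genes did not pass the test, and in the controls each varied more between libraries than any CIP/KIP gene. Cdkn2d, which encodes p19 INK4d, was the highest of the family (chromosome 9, 21288410 to 21291407). Its levels were 16.7, 11.4 and 28.6 CPM in controls and 21.1, 20.1 and 17.8 CPM in knockouts. The knockouts lay inside the range of the controls, whose highest library, control 3, held 373 reads against 120 in control 2. The means of 18.9 ± 8.81 and 19.7 ± 1.68 CPM (SD, n = 3 per group) gave a log2 fold change of 0.06 ± 0.31 (SE, 95% interval −0.64 to 0.75, edgeR adjusted p 0.938). Its sign turned with library size alone (−0.22), after removal of the length and GC trend (−0.27) and without control 1 or 2 (−0.031 and −0.19). Within the family Cdkn2d took 71.6% ± 12.2 of the per-length level in controls and 71.8% ± 8.99 in knockouts (exact permutation p = 1).

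Cdkn2c, which encodes p18 INK4c, had 106, 25 and 36 reads in controls and 33, 46 and 23 in knockouts. Control 1 stood apart at 10.1 CPM, where the other 5 libraries lay between 2.07 and 4.17 CPM. The 95% Poisson interval of its 106 reads, 86.8 to 128, lies above those of the other controls, the higher of which ends at 49.8 (counting error only). The log2 fold change was −0.71 ± 0.61 (SE, 95% interval −2.05 to 0.64, edgeR adjusted p 0.519). Without control 1 it was 0.27, so the direction rests on that library.

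Cdkn2b, which encodes p15 INK4b, a target of TGF-beta signalling, lies 11646 bases from Cdkn2a on chromosome 4 (89306299 to 89311039). The controls had 3, 38 and 36 reads and the knockouts 28, 43 and 61. Control 1 was again the library that stood apart, this time on the low side: its 3 reads (Poisson interval 0.619 to 8.77) were 0.287 CPM, where the other 5 libraries ran from 2.60 to 5.49 CPM. The log2 fold change was 0.84 ± 0.74 (SE, 95% interval −0.78 to 2.47, edgeR adjusted p 0.525). It was 0.33 without control 1, 1.37 without control 2 and 0.54 without knockout 3.

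Cdkn2a was barely expressed. The locus encodes p16 INK4a and, from another first exon in another reading frame, the p53 activator ARF, and a count per gene does not separate them (chromosome 4, 89274471 to 89294653). Reads were 9, 15 and 4 in controls and 4, 5 and 28 in knockouts, that is 0.307 to 1.42 CPM and 0.372 to 2.52 CPM. Knockout 3 held most of the knockout reads, and without it the log2 fold change of 0.38 ± 1.04 (SE, 95% interval −1.92 to 2.67, edgeR adjusted p 0.867) became −1.04. The 28 reads of knockout 3 (Poisson interval 18.6 to 40.5) lay clear of the 5 reads of knockout 2 (1.62 to 11.7), so the knockouts differed by more than counting error, and the interval of the fold change covers changes in either direction.

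The spread of the INK4 genes was measured by the biological coefficient of variation that edgeR estimates for each gene. It was 0.769 for Cdkn2a, 0.613 for Cdkn2b, 0.521 for Cdkn2c and 0.275 for Cdkn2d, each above the value that edgeR's trend gives for genes of that level (0.726, 0.521, 0.460 and 0.242). For Cdkn1a, Cdkn1b and Cdkn1c it was 0.143, 0.253 and 0.225, each below the trend (0.178, 0.302 and 0.245). Coefficients of variation in the controls were 46.6% to 85.9% for the INK4 genes and 5.49% to 27.5% for the CIP/KIP genes. In the knockouts the families overlapped, with 8.56% for Cdkn2d and 33.9% to 109% for the other INK4 genes against 5.62% to 9.78% for the CIP/KIP genes. The summed INK4 level was 16.2 ± 4.82 CPM per kb in controls and 17.5 ± 0.730 CPM per kb in knockouts (SD, n = 3 per group, exact permutation p = 0.7, also with the pair averaged). With the pair as 1 library edgeR gave log2 fold changes of 0.74 for Cdkn2a, 0.98 for Cdkn2b, −0.81 for Cdkn2c and 0.025 for Cdkn2d, none called, with unadjusted p-values from 0.271 to 0.949.

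Cdkn3 was read at 48.4, 60.7 and 38.2 CPM in controls and 38.9, 36.8 and 44.8 CPM in knockouts (chromosome 14, 46760541 to 46771669). The groups overlapped through control 3. The log2 fold change was −0.29 ± 0.20 (SE, 95% interval −0.73 to 0.15, edgeR adjusted p 0.420). It was −0.10 without control 2 and −0.44 without control 3, −0.54 with library size alone as the scale, −0.52 after removal of the length and GC trend and −0.24 with the knockout pair as 1 library, and was called in none of these. Its spread of 0.184 lay close to the trend at 0.191.

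**Figure D4:**
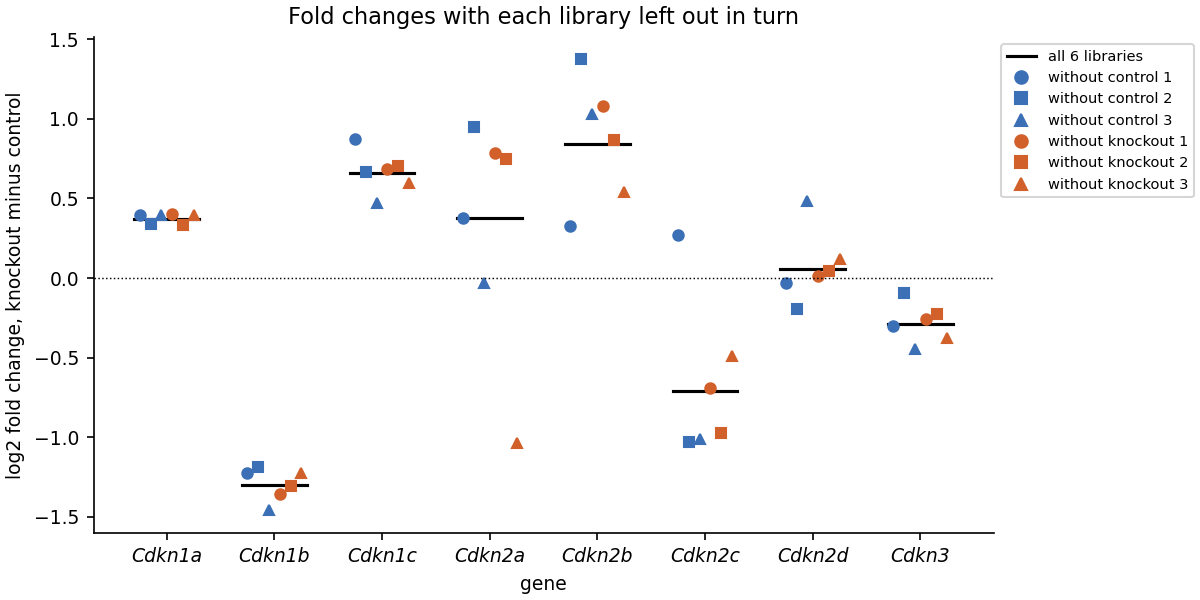
Log2 fold change of each gene from all 6 libraries (black bar) and from edgeR fits that leave out 1 library each (points, coloured by the group and shaped by the replicate left out). Cdkn1b stays between −1.46 and −1.19, while Cdkn2a, Cdkn2c and Cdkn2d have points on both sides of 0.

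Levels of different genes were compared per length. In controls Cdkn3 (20.7 ± 4.77 CPM per kb) and Cdkn1a (16.2 ± 0.887) led, followed by Cdkn2d (12.0 ± 5.59), Cdkn1c (7.10 ± 1.95) and Cdkn1b (3.37 ± 0.678). Cdkn2c (1.89 ± 1.63), Cdkn2b (1.60 ± 1.24) and Cdkn2a (0.737 ± 0.477) came last. The first 4 of these overlapped with their neighbours across libraries, and Cdkn1b overlapped with Cdkn2c but not with Cdkn1c. In knockouts the order was Cdkn1a (21.0 ± 1.18), Cdkn3 (16.9 ± 1.75), Cdkn2d (12.5 ± 1.07), Cdkn1c (11.2 ± 0.789), Cdkn2b (2.88 ± 1.04), Cdkn1b (1.37 ± 0.134), Cdkn2c (1.16 ± 0.392) and Cdkn2a (0.952 ± 1.04). There Cdkn1a lay above Cdkn3, and Cdkn2b above Cdkn1b, in all 3 libraries, while Cdkn2d and Cdkn1c overlapped, as did Cdkn1b, Cdkn2c and Cdkn2a.

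For the 5 members with a mean of at least 5 CPM, the genes with the most similar profile were sought among 13440 protein-coding genes, as the smallest root mean square difference of log2 levels centred on each gene's mean over the 6 libraries. For Cdkn1b these were Tut1 (0.09), Rpia (0.10) and Sgpp1 (0.11), where the median gene differed by 0.74. For Cdkn1a they were Scpep1 (0.03), Sept7 (0.06) and Sh3glb1 (0.06), with a median of 0.45. The genes nearest to Cdkn1c were Eng (0.07), Col5a2 (0.08) and Dmd (0.09), with a median of 0.57. Cdkn2d was nearest to Zbtb37, Clec4a1 and Zbtb34 (0.10 to 0.13) and Cdkn3 to Tle4, Prkch and Efcab11 (0.07 each). The 6 libraries include the near-identical knockout pair, and the likeness is a description with no test.

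The partners of the inhibitors were examined as lists chosen by name, and each count of calls stands against the 2.03% of all genes called higher and the 2.80% called lower. In lists of this size 1 call is too few to set against those shares. Of 13 cyclins and kinases that CIP/KIP and INK4 proteins bind, 1 was lower and 12 did not pass, with a median log2 fold change of −0.02. The called gene was Ccnb2, a mitotic B-type cyclin, which fell from 233 ± 39.6 to 142 ± 8.31 CPM (log2 fold change −0.71, edgeR adjusted p 0.0400). Cdk2, the main target of p27, was read at 58.6 ± 1.71 CPM (controls) and 45.2 ± 2.33 CPM (knockouts; log2 fold change −0.37, adjusted p 0.164). The INK4 targets Cdk4 and Cdk6 had log2 fold changes of 0.24 and 0.45 with adjusted p-values of 0.360 and 0.168. Values for Cdk2, Cdk4 and Cdk6 are given for their role as targets and were picked after they were seen. Of 8 pocket protein and E2F genes 0 were called by edgeR, though 4 had an unadjusted p under 0.05, all of them with lower levels in the knockouts, where this held for 12.8% of all genes, and the median was −0.61 against 0.01 over all genes. DESeq2 called 0 of them and limma-voom 4, as lower. Over all 14766 genes limma-voom called 19.5% in either direction, 1730 genes of them as lower. The smallest p-values were those of Rb1 (log2 fold change −0.68, adjusted p 0.0826), the retinoblastoma protein gene, and of E2f5 (−0.81, adjusted p 0.103).

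Genes that act on CIP/KIP proteins after translation gave 1 call among 12, where 2.80% of all genes were called lower. Cul4b, a scaffold of the CRL4 ubiquitin ligases, of which the form with DTL degrades p21, fell from 200 ± 9.87 to 131 ± 6.74 CPM (log2 fold change −0.61, edgeR adjusted p 0.0395). Skp2, the receptor of the ligase that degrades p27, was read at 2.02 ± 0.842 CPM (controls) and 2.39 ± 1.21 CPM (knockouts), adjusted p 0.866. Dtl was read at 62.7 ± 15.1 CPM (controls) and 36.9 ± 4.45 CPM (knockouts), without overlap (log2 fold change −0.76, edgeR adjusted p 0.0613). Skp2 and Dtl were named for their roles after their values were seen. Of the 12 genes 2 had an unadjusted p under 0.05 as lower and 0 as higher (all genes: 12.8% and 11.3%). Over the 12 genes the median log2 fold change was −0.06.

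Of 20 tested regulators of transcription of the inhibitor genes, out of 22 listed, 1 rose, 2 fell and 17 did not pass (all genes: 2.03% and 2.80%), with a median of −0.10. An unadjusted edgeR p under 0.05 was found for 6 as lower and 1 as higher (all genes: 12.8% and 11.3%). Without overlap between the groups, 7 were lower and 2 higher (all genes: 15.8% and 16.8%). Foxo3, a forkhead factor that is known to activate Cdkn1b, fell from 47.0 ± 12.5 to 25.7 ± 1.66 CPM (log2 fold change −0.87, edgeR adjusted p 0.0458). Smad4, the shared SMAD of TGF-beta and BMP signalling, fell by 0.68 on the log2 scale (adjusted p 0.0463). Id1, a BMP-responsive inhibitor of helix-loop-helix factors, rose from 67.0 ± 5.40 to 126 ± 21.0 CPM (log2 fold change 0.91, adjusted p 0.0205). Read counts of Foxo3 were 640, 393 and 557 in controls and 257, 286 and 302 in knockouts, without overlap in CPM.

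Among 16 other p53 targets, set beside Cdkn1a, 2 rose and 14 did not pass (all genes: 2.03% called higher), with a median log2 fold change of 0.47. Unadjusted p-values under 0.05 were found for 6 as higher and 1 as lower (all genes: 11.3% and 12.8%). The groups did not overlap in 7 as higher and 1 as lower (all genes: 16.8% and 15.8%). The lower gene was Trp53inp1 (log2 fold change −0.65, edgeR adjusted p 0.106), named after its value was seen. Sesn2, a stress-induced regulator of mTORC1, rose from 2.12 ± 0.717 to 8.71 ± 1.53 CPM (log2 fold change 2.04, edgeR adjusted p 0.0279). Perp, a membrane protein gene of cell adhesion and death, rose from 3.23 ± 0.658 to 9.01 ± 1.42 CPM (log2 fold change 1.47, adjusted p 0.0461). Among 11 genes of the imprinted cluster around Cdkn1c 0 were called by edgeR, while 3 had an unadjusted p under 0.05 with higher levels in the knockouts (all genes: 11.3%), and DESeq2 and limma-voom called 1 each, as higher. Over all genes DESeq2 called 806 as higher and limma-voom 1152. In 6 of the 11 the knockouts lay above all controls, where this held for 16.8% of all genes, and the median was 0.78. The smallest p-values were those of Tspan32 (0.510 ± 0.586 and 4.72 ± 2.23 CPM, adjusted p 0.0782) and Phlda2 (4.73 ± 1.93 and 9.68 ± 1.503 CPM, adjusted p 0.131). Kcnq1ot1, the noncoding RNA that silences the paternal side of this cluster, was read at 3.70 ± 2.22 and 3.56 ± 1.33 CPM and was named after its value was seen.

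All 7 calls in these 6 lists were lost in edgeR without control 2, without any 1 of the knockouts, and with knockout 1 and 2 counted as 1 library. Foxo3 and Perp also lost theirs without control 1, and Foxo3, Smad4, Cul4b and Ccnb2 theirs without control 3. Perp and Id1 were not called with library size alone, and Perp, Id1 and Foxo3 not after removal of the length and GC trend. When the pair counted as 1 library, DESeq2 kept 2 of the 7 and limma-voom 3.

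**Figure D5:**
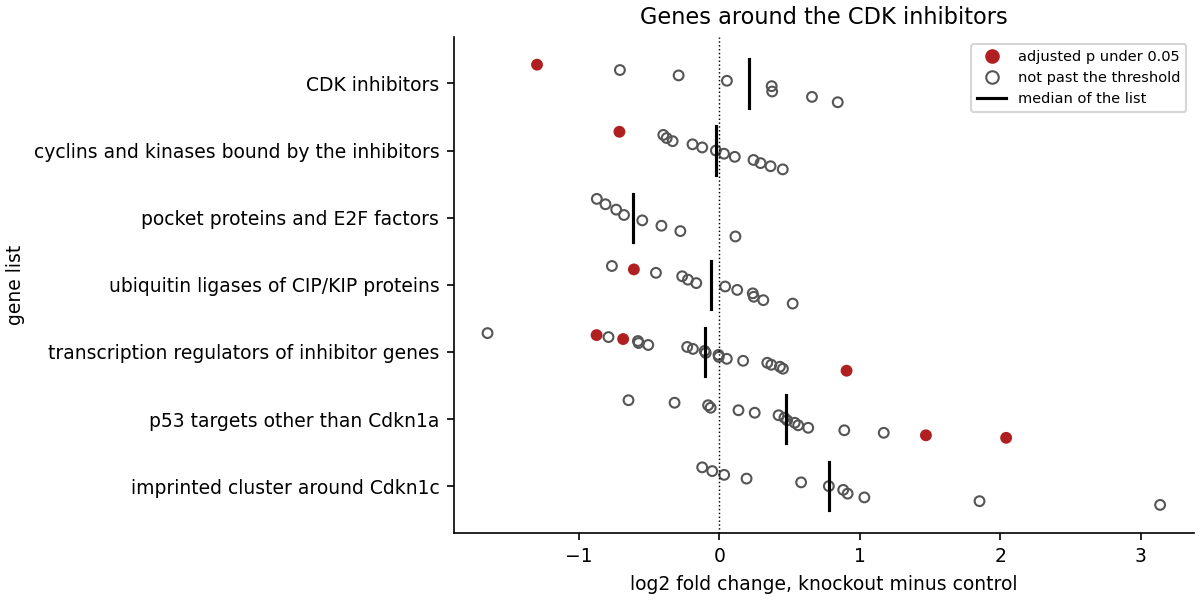
Log2 fold change of knockout minus control for the tested genes of the CDK inhibitors and of 6 related lists; each point is a gene, filled red where the edgeR adjusted p was under 0.05, and the black bar is the list's median. Called genes lie on both sides of 0, and the medians run from −0.61 for pocket proteins and E2F factors to 0.78 for the imprinted cluster.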

How the data were processed

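The authors deposited whole-number read counts per Ensembl gene for 6 SMART-seq2 libraries, with no molecular identifiers and no strand record. Poisson intervals of reads cover counting error only, while the 95% intervals of fold changes use the spread that edgeR estimated between libraries. The deposited table also holds the sum and the mean signal over the libraries, which were not used. Per the submitters' processing notes, reads were handled on mm10 with tools that include STAR 2.7.5c, Trimmomatic 0.39 and StringTie 2.1.7, beside edgeR and DESeq2, whose roles are not named. The counter, its annotation and its strand setting are not stated there or in the labels.

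Symbols, positions and exon lengths came from GENCODE M21 (22562 of 22579 identifiers matched). Knockout and control were compared by quasi-likelihood tests in edgeR 4.0.16 (R 4.3.3; robust, TMM scaling, filterByExpr, genotype as the sole term), with Benjamini-Hochberg adjustment over 14766 genes and a threshold of 0.05. SEs are log2 fold changes divided by the root of the F statistic. DESeq2 1.42.0, limma-voom (limma 3.58.1), other scalings and filters, a replicate block, each library left out, the knockout pair as 1 library, mitochondrially encoded genes left out and removal of length and GC trends (lowess, span 0.3) were alternatives. The fits were also run on simulated data, and no result given here rests on those runs. Shares and ratios were tested by exact two-sided permutation. Nothing in the labels ties libraries to separate animals, so p-values measure the spread between these libraries, which may be technical.

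Named genes were the 8 members, Ddx20, genes that overlap a member, the called genes of each related list (or the 2 with the smallest p) and the 3 genes most alike (pseudocount 0.5 CPM). From the cell type lists summed levels are given, with single markers as a check. The members and lists were chosen with earlier results of these data known.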

Additional observations from a re-analysis of the deposited data

How the results depend on the processing

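Cdkn1b was lower in all settings tried, and Cdkn1a, Cdkn1c, Cdkn2b and Cdkn3 kept their direction in all of them. With knockout 1 and 2 as 1 library the Cdkn1b log2 fold change was −1.33 by edgeR and −1.31 by limma-voom, neither of which was called. With each library left out it ran from −1.46 to −1.19. By limma-voom with quality weights Cdkn1a (0.43) and Cdkn1c (0.71) were called too, making 3 members, and the log2 fold changes of Cdkn2a and Cdkn2c turned to −0.77 and 0.19. The number of members called was 0 with the knockout pair as 1 library, by edgeR (1 at an unadjusted p under 0.05) and by limma-voom, against 1 by DESeq2, and 0 to 1 with a library left out. Leaving out libraries gave −1.04 to 0.95 for Cdkn2a, −1.03 to 0.27 for Cdkn2c and −0.19 to 0.48 for Cdkn2d. Cdkn2d was also −0.22 with library size alone and −0.27 after removal of the length and GC trend, and without control 1 −0.031. Without control 3 Cdkn2a was at −0.034. The difference in the Cdkn1b share was −11.5 percentage points on raw counts and −9.55 to −7.51 with a library left out. The cause of these changes was not tested.

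Over all genes 300 were called higher and 413 lower by edgeR. The counts were 806 and 796 by DESeq2, 1152 and 1730 by limma-voom, and 1 and 0 by edgeR with the knockout pair as 1 library (985 and 1165 at an unadjusted p under 0.05), where DESeq2 gave 262 lower and limma-voom 249. Library size alone gave 1152 lower genes and 226 higher, and edgeR's newer fit 517 higher; that fit, and DESeq2 and limma-voom with the pair as 1 library and the pair-averaged ratios and sums, were chosen after seeing the data. Leaving out a library gave 2 to 414 higher and 1 to 468 lower genes. Deviations of same-numbered libraries of the groups were correlated at r = 0.000853, 0.0116 and 0.0165, against −0.0255 to 0.0132 for different numbers. As knockout 1 and 2 were nearly the same library, these values cannot decide whether the numbers pair libraries. With the replicate block the Cdkn1b log2 fold change was −1.28 (adjusted p 0.0431), that of Cdkn2a turned to −0.060, and 312 genes were higher and 371 lower. Perp, Smad4, Cul4b and Foxo3 were not called with the block. At 4 to 28 reads of Cdkn2a per library, counting error and the spread between libraries both widen its interval.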
